A study of Mus musculus with 46 samples.

Results

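The liver metabolome of castrated male mice was compared with that of sham-operated males at 18 months of age. Every compound that the authors had named from its fragment spectrum in the 18-month liver was taken, 954 entries in all, out of 1796 distinct names over the 4 metabolite tables used here. For each compound the mean of castrated males was divided by the mean of sham males, and sham-operated females are given as context. No compound entered this set for its value, but those named below include the largest and smallest ratios.

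The mice were wild-type C57BL6 animals kept on normal chow in a pathogen-free facility. Castration or a sham procedure was performed at 8 weeks of age, and tissue was taken at 12 weeks or 18 months. The groups compared here at 18 months share strain and genotype and are castrated males, sham-operated females and sham-operated males. The series asks how castration and sex relate to healthy ageing. Each metabolite value is the authors' single mean per group in relative abundance, with no spread, and the number of mice behind it is not stated in the labels or headers. No test between groups was therefore possible, no standard deviation can be printed, and "higher" and "lower" describe group means only. Relative abundances depend on how well each compound is ionised, so levels were compared between groups for 1 compound and not between compounds.

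The liver receives nutrients and microbial products from the gut, makes and conjugates bile acids, builds phospholipids and lipoproteins, and oxidises fatty acids. In mice many of its enzymes and transporters differ between the sexes, largely through the pituitary growth hormone rhythm that testicular androgens shape. Castration of males removes that androgen source. Several of the enzymes known for a sex bias in mouse liver act on the compounds measured here, such as the flavin monooxygenases that make trimethylamine N-oxide and the hydroxylase Cyp7b1 of the acidic bile acid pathway.

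Most of the liver metabolome differed little in level between castrated and sham males. Of the 954 compounds, 68 (7.13%) were more than 2-fold higher in castrated males and 32 (3.35%) were more than 2-fold lower, and 854 lay within 2-fold. The median log2 ratio was 0.04, with quartiles at -0.29 and 0.38. Of the 954 ratios, 517 were above 0 and 437 below 0, the background for the class counts given below. The shares of 7.13% and 3.35% are likewise the background for class counts past 2-fold. For context, sham females over sham males gave 65 compounds (6.81%) more than 2-fold higher and 64 (6.71%) more than 2-fold lower. Castrated males over sham females gave 63 (6.60%) more than 2-fold higher and 33 (3.46%) more than 2-fold lower. These 3 ratios share their group means, so their counts are not independent of each other. Scaling each group to its total signal moved the last split to 48 higher and 59 lower, and its median log2 ratio from -0.03 to -0.18. The summed signal was 3512 in castrated males, 3147 in sham females and 3338 in sham males.

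Large ratios were more frequent among scarce compounds. Among the 239 compounds of lowest abundance, 40 (16.7%) lay past 2-fold between castrated and sham males. Among the 239 of highest abundance, 13 (5.44%) did. The free fatty acids at the top of the abundance range differed little. Palmitic acid had a relative abundance of 642 in castrated males, 428 in sham females and 637 in sham males.

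**Figure D1:**
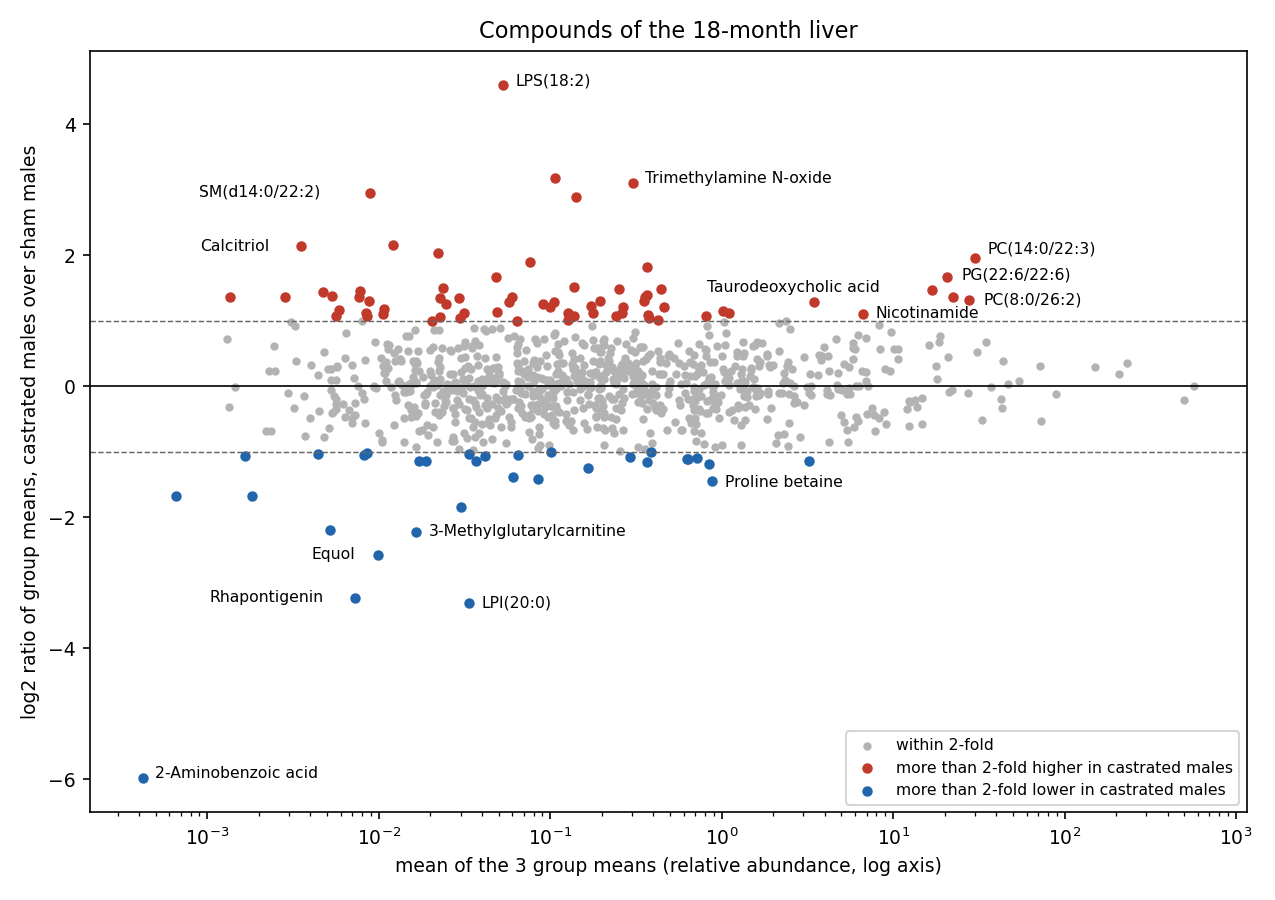
Each point is 1 of the 954 compounds, with its mean over the 3 groups on a log x axis and its log2 ratio of castrated over sham males on the y axis. Dashed lines mark 2-fold, and the points spread most at low abundance. Trimethylamine N-oxide (log2 ratio 3.10) and LPS(18:2) (4.59) stand at the top, and 2-aminobenzoic acid (-5.98) at the bottom.

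Trimethylamine N-oxide, the liver oxidation product of a gut microbial amine made from choline and carnitine, was 8.56-fold higher in castrated males. Its relative abundance was 0.344 in castrated males, 0.522 in sham females and 0.0402 in sham males, so sham males stood apart from both other groups. Choline itself, the dietary amine upstream, differed little, with 10.3 in castrated males, 9.80 in sham females and 8.80 in sham males. Betaine, the oxidised form of choline that donates methyl groups, had 0.905, against 0.758 in sham females and 1.02 in sham males.

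The class of choline, betaine and methyl donors, which also holds proline betaine and trimethylamine N-oxide, had ratios on both sides of 0. Of its 19 compounds, 12 had a negative log2 ratio, against 437 of 954 over all compounds. Only trimethylamine N-oxide was past 2-fold higher and 3 were past 2-fold lower. The class median was -0.32 against 0.04 over all compounds. Betaine aldehyde, the intermediate between choline and betaine, had 0.00527 in castrated males, 0.00859 in sham females and 0.0109 in sham males (log2 ratio -1.05). Proline betaine, a plant-derived betaine taken up with food, had 0.431 in castrated males, 1.05 in sham females and 1.17 in sham males (-1.44). Castrated males were the lowest group for both.

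Phosphorylcholine and CDP-choline, successive intermediates of phosphatidylcholine synthesis, both had a log2 ratio of -0.62. S-adenosylmethionine, the general methyl donor, had 0.0778 in castrated males, 0.0597 in sham females and 0.119 in sham males (-0.62). S-adenosylhomocysteine, its product after methyl transfer, had 1.47 in castrated males, 1.46 in sham females and 1.07 in sham males (0.46). The donor was thus lower and the product higher than in sham males. The entry named racemethionine was lower at -1.15, with 0.201 in castrated males, 0.452 in sham females and 0.448 in sham males, while the entry named L-methionine was at -0.35.

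RNA from the same tissue and age gives the levels of the enzymes, though whether it came from the same mice is not stated. The authors' deposited table compares castrated with sham males by DESeq2, and the labels list 5 castrated and 3 sham male liver libraries. Of 16883 genes tested, 182 (1.08%) rose and 171 (1.01%) fell at an adjusted p under 0.05. The deposited log2 fold column runs as sham over castrated: all 312 called genes whose deposited mean reached 1 in either group had the sign opposite to that of castrated over sham means. It is turned here so that positive values mean higher in castrated males. Of the 156 pathway genes listed for this comparison, 7 rose and 5 fell. The shares over all genes are the background for the counts of the single lists below. In whole liver, a lower level of RNA per cell and fewer cells of a type cannot be told apart. The hepatocyte marker Alb averaged 48362 in castrated males, 49901 in sham females and 45204 in sham males, in the authors' unnamed expression unit. Of the other hepatocyte markers, Apoa1 averaged 11428, 10212 and 10399 and Ttr 11631, 9164 and 11119 in the same order of groups. Cps1 (348, 593 and 584) and Tat (758, 1084 and 1027) were lowest in castrated males. Their part in the gene results was not tested. The kidney markers Kap, Slc34a1 and Lrp2 were at 3.02 or below in each group.

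The flavin monooxygenases, a family with members that oxidise trimethylamine, included 3 genes that rose out of 4 listed, against 1.08% of all genes tested. Which of the 4 act on trimethylamine in this tissue was not tested. Fmo2 (chromosome 1, 162874317 to 162898726, mm10, minus strand) averaged 23.8 in castrated males, 21.7 in sham females and 3.62 in sham males, with a log2 fold of 2.56 in the authors' deposited table (adjusted p = 8.84e-39, DESeq2). Fmo1 and Fmo4 also rose, by 0.83 and 1.0 on the log2 scale of the authors' deposited table (adjusted p = 0.000397 and 0.00532, DESeq2), and Fmo5 was not called. None of the 14 listed genes of choline, betaine and methyl metabolism was called in that table, Chdh, Bhmt, Gnmt, Pemt and Mat1a among them. The enzymes' part in the compounds' differences was not tested.

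All 3 taurine-conjugated bile acids were higher in castrated males, while glycine-conjugated and unconjugated ones lay on both sides of 0. The grouping by conjugate was chosen after the values were seen. Bile acids are made from cholesterol in hepatocytes and, in mice, conjugated mostly with taurine before export. Taurodeoxycholic acid, a secondary bile acid that gut bacteria form and the liver conjugates again, had 21.0 in castrated males, 22.1 in sham females and 7.58 in sham males (log2 ratio 1.47). Taurocholic acid, a main primary bile acid of the mouse, had 41.5 in castrated males, 36.6 in sham females and 25.9 in sham males (0.68). Tauro-b-muricholic acid, a primary bile acid typical of rodents, had 0.864 in castrated males, 0.256 in sham females and 0.547 in sham males (0.66). For the first of these castrated males lay near sham females, and for the last they were furthest from them.

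The 6 unconjugated bile acids had log2 ratios between -0.44 and 0.88, and the 4 glycine conjugates between -0.40 and 0.22. Deoxycholic acid, the unconjugated form of taurodeoxycholic acid, was at 0.88, with 0.0669 in castrated males, 0.0348 in sham females and 0.0364 in sham males. Over all 13 bile acids 1 was past 2-fold higher and 0 were lower, with a median of 0.07. Taurine itself was level, with 39.9 in castrated males, 31.2 in sham females and 40.1 in sham males.

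Of 17 listed genes of bile acid synthesis, conjugation and transport, 2 rose and 2 fell, against 1.08% and 1.01% of all genes tested. Slco1a1 (chromosome 6, 141907282 to 141946962, mm10, minus strand), an uptake transporter of hepatocytes for bile acids and steroid conjugates, averaged 0.458 in castrated males, 0.120 in sham females and 105 in sham males. Its log2 fold in the authors' deposited table was -8.0 (adjusted p = 2.26e-47, DESeq2). Cyp7b1 (chromosome 3, 18071950 to 18243338, mm10, minus strand), the oxysterol hydroxylase of the acidic pathway, averaged 16.8 in castrated males, 12.8 in sham females and 123 in sham males. It fell by 2.98 on the log2 scale in the authors' deposited table (adjusted p = 2.75e-12, DESeq2).

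The transporters Slco1a4, an uptake carrier, and Abcc4, an exporter across the blood-side membrane, rose by 1.28 and 2.0 on the log2 scale of the authors' deposited table (adjusted p = 8.39e-08 and 2.05e-07, DESeq2). Slco1a4 averaged 36.2 in castrated males, 53.1 in sham females and 13.3 in sham males, and Abcc4 averaged 2.56, 4.66 and 0.577 in the same order of groups. The rate-limiting enzyme Cyp7a1, the conjugating enzyme Baat and the export pump Abcb11 were not called there.

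**Figure D2:**
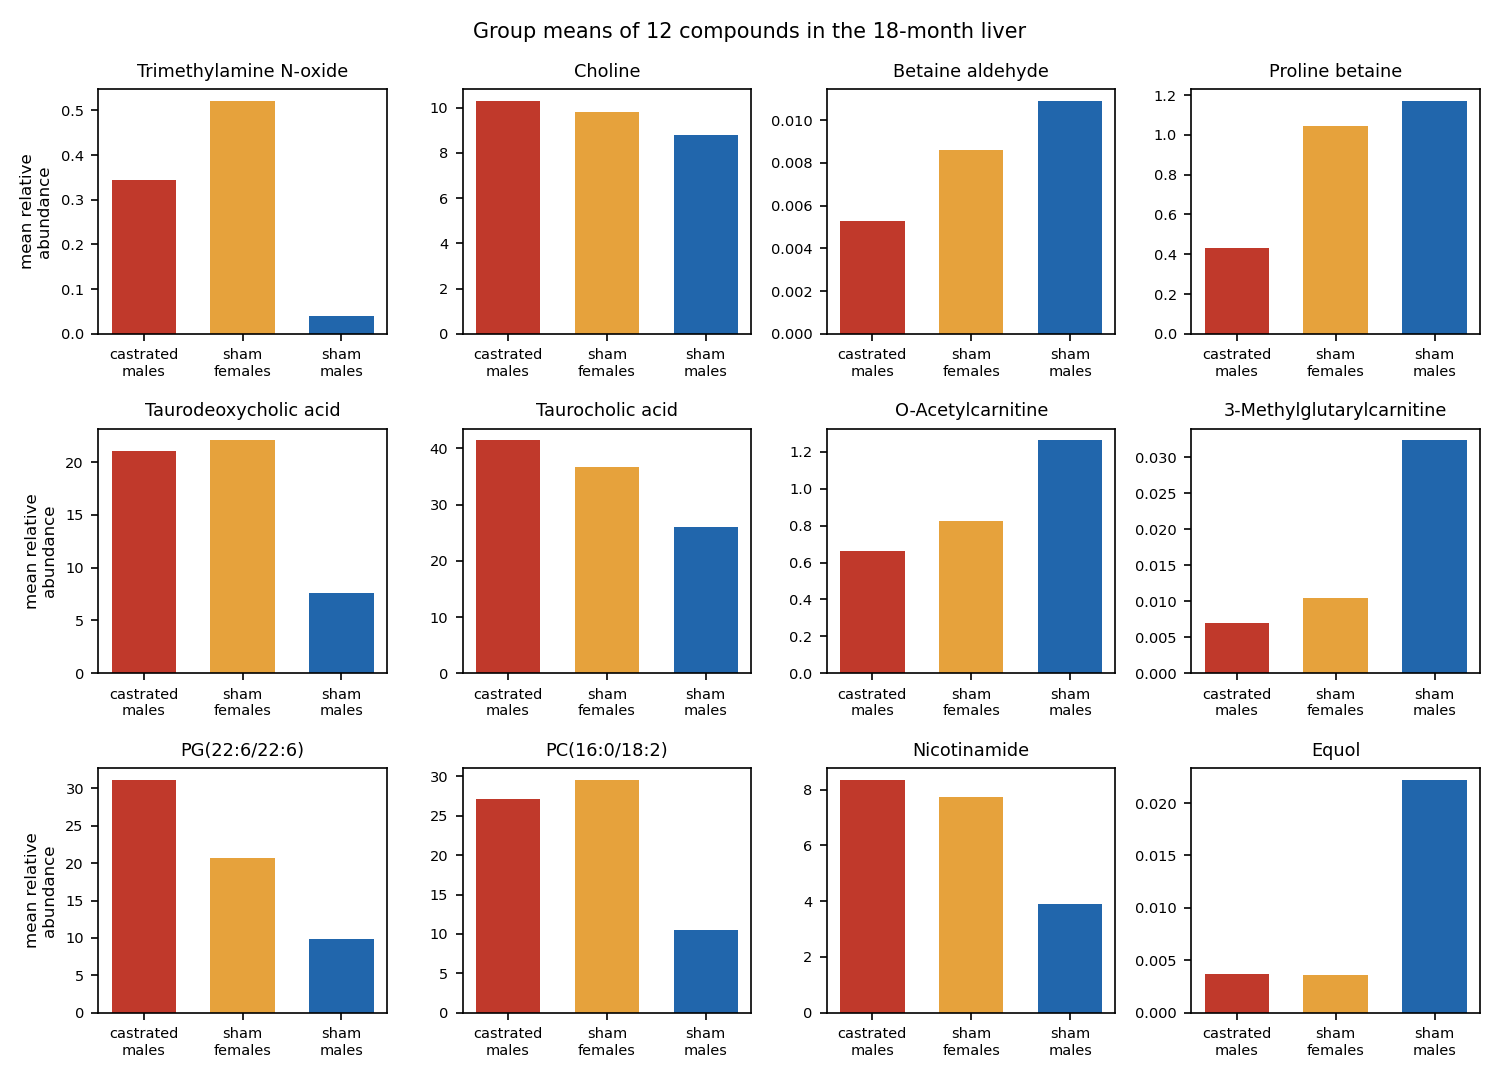
Bars are the authors' mean relative abundances of 12 compounds in castrated males, sham females and sham males, each panel with its own axis from 0 and no error available. Trimethylamine N-oxide was 0.344 in castrated males and 0.0402 in sham males, and equol was 0.00373 in castrated males and 0.0222 in sham males.

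Acylcarnitines with 2 to 5 acyl carbons, other than propionylcarnitine, were lower in castrated males, whereas the median of long-chain ones was near the sham male level. Acylcarnitines carry fatty acyl groups into mitochondria, and their short-chain members derive from the ends of fatty acid and amino acid breakdown. The 6 entries with 2 to 5 acyl carbons had a median log2 ratio of -0.82, the 7 with 6 to 12 carbons one of -0.50, and the 10 with 14 or more carbons one of -0.11. Among those of 6 to 12 carbons 2 were above 0, the branched 2,6 dimethylheptanoyl carnitine at 0.30 and ACar(9:0) at 0.13. This split by chain length was chosen after the values were seen. Over the whole class of 26, 19 were below 0, against 437 of 954 over all compounds, and only 3-methylglutarylcarnitine was past 2-fold.

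3-Methylglutarylcarnitine, a carnitine ester linked to leucine breakdown, had 0.00694 in castrated males, 0.0104 in sham females and 0.0324 in sham males (-2.22). Acetylcarnitine had 0.665 in castrated males, 0.827 in sham females and 1.26 in sham males (-0.93). Butyrylcarnitine had 0.207 in castrated males, 0.469 in sham females and 0.402 in sham males (-0.95), and 2-methylbutyroylcarnitine, from isoleucine breakdown, had 0.167, 0.487 and 0.319 in the same order of groups (-0.93). For these 4 compounds castrated males were the lowest group.

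The other end of the class lay between -0.26 and 0.44. Palmitoylcarnitine had 0.210 in castrated males, 0.261 in sham females and 0.241 in sham males (-0.20), and free L-carnitine 13.8, 15.1 and 15.6 in the same order (-0.17). The 2 entries of propionylcarnitine were level between castrated and sham males, at -0.13 and 0.04, while sham females were lower, at 0.0654 and 0.101, against 0.228 and 0.307 in sham males.

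Among 16 listed genes of carnitine handling, fatty acid oxidation and ketone formation, 1 was called. Over all genes tested 1.08% rose and 1.01% fell. Slc22a5 (chromosome 11, 53864542 to 53891660, mm10, minus strand), the carnitine uptake transporter, rose by 1.22 on the log2 scale in the authors' deposited table (adjusted p = 0.00259, DESeq2). It averaged 24.2 in castrated males, 18.1 in sham females and 8.68 in sham males. Cpt1a, Crat, Acadm and Ivd were not called in that table. 3-Hydroxybutyric acid, a ketone body, had 2.27 in castrated males, 1.15 in sham females and 1.41 in sham males (0.68).

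Phosphatidylglycerols and their lyso forms with a chain of 4 or more double bonds were mostly higher in castrated males, in 15 of 17 and 5 of 5 entries. Over all compounds, 517 of 954 were above 0. Phosphatidylglycerol is the precursor of cardiolipin in mitochondria, and its structural isomer bis(monoacylglycero)phosphate (BMP) belongs to lysosomes. Of 31 phosphatidylglycerols 23 had a positive log2 ratio and 3 were past 2-fold higher and 0 lower, with a median of 0.32. PG(22:6/22:6), with 2 docosahexaenoyl chains, had 31.2 in castrated males, 20.7 in sham females and 9.80 in sham males (1.67). PG(22:5/22:6) had 4.54, 4.0 and 1.87 in the same order of groups (1.28), and PG(20:4/22:5) had 0.987, 0.980 and 0.467 (1.08).

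The 17 phosphatidylglycerols with a chain of 4 or more double bonds had a median of 0.49, with PG(22:4/22:6) among the exceptions at -0.47, and the 14 without one had a median of 0.04, with 8 above 0. PG(16:1/16:1), with short monounsaturated chains, was the lowest of the class at -0.98, and PG(18:2/18:2) was at -0.42. Among the 13 lysophosphatidylglycerols, 11 were above 0, against 517 of 954 over all compounds, and none was past 2-fold. All 5 with a chain of 4 or more double bonds were above 0, with a median of 0.72, led by LPG(20:4) at 0.92 and LPG(22:6) at 0.87. The other 8 had a median of 0.10. This division by double bonds was also chosen after the values were seen. The isomer class was mixed, since BMP(22:6/22:6) was at 0.52 and BMP(20:4/22:6) at -1.14.

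Entries with the docosahexaenoyl chain (22:6) lay on both sides of 0 across lipid classes. Of 8 phosphatidylglycerols with it 7 were above 0, with a median of 0.58, and all 3 phosphatidylinositols with it were below 0, with a median of -0.56. The 16 phosphatidylcholines with it, the largest such group, had 7 above and 9 below 0, with a median of -0.13. Of 5 phosphatidylethanolamines 3 were above 0, reaching 1.23, and the single phosphatidylserine and phosphatidylmethanol entries were at 0.72 and 0.52. LPC(22:6), a form in which this fatty acid travels in plasma, had 3.12 in castrated males, 7.63 in sham females and 5.62 in sham males (-0.85). LPS(22:6) had 1.64 in castrated males, 4.40 in sham females and 3.60 in sham males (-1.14), and LPE(22:6) was at 0.46. Free docosahexaenoic acid was close to level, with 230 in castrated males, 193 in sham females and 202 in sham males (0.18).

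**Figure D3:**
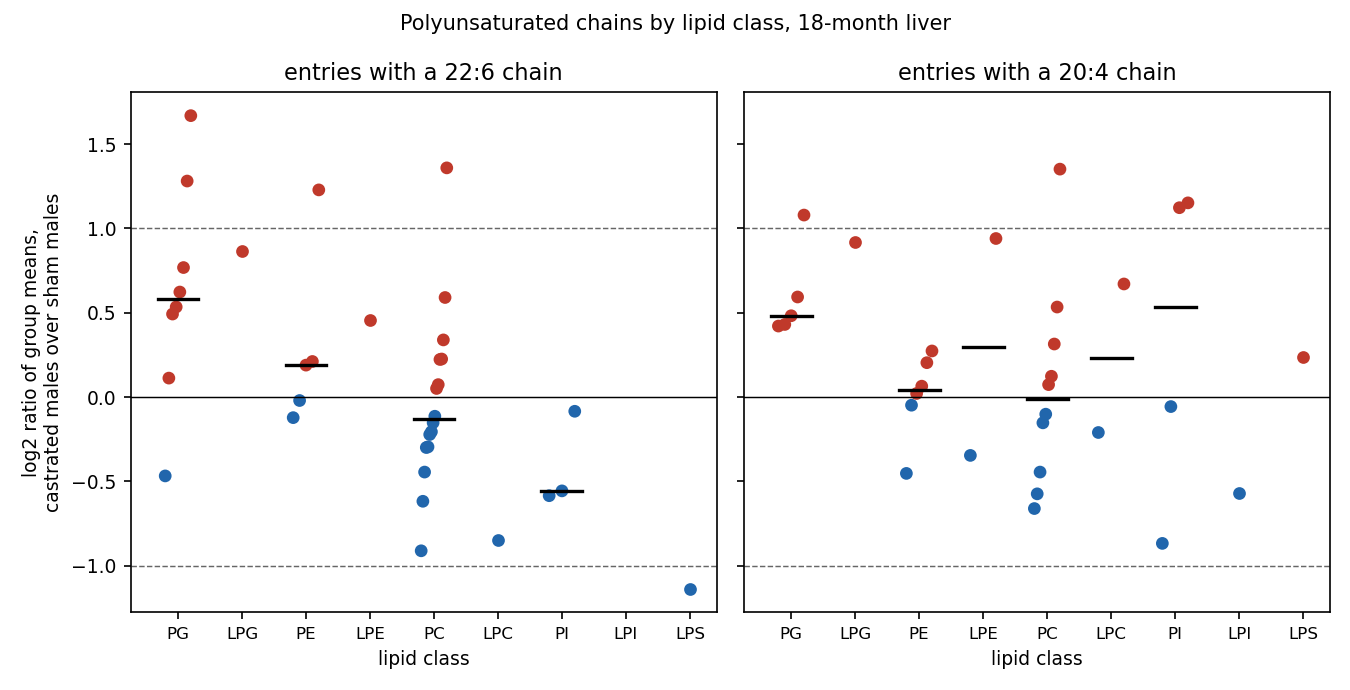
Each point is 1 lipid entry with a 22:6 chain (left) or a 20:4 chain (right), with its lipid class on the x axis and its log2 ratio of castrated over sham males on the y axis. Black bars are medians where a class has several entries, and dashed lines mark 2-fold. With 22:6 the phosphatidylglycerols (PG) centre on 0.58 and the phosphatidylinositols (PI) on -0.56.

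Phosphatidylcholines, the bulk phospholipid of liver membranes and lipoproteins, held 14 of the 68 compounds past 2-fold higher. The class has 113 entries, of which 2 were past 2-fold lower, and its median was 0.12; over all compounds 7.13% were past 2-fold higher. Without the 239 scarcest compounds, 9 of its 93 remaining entries were past 2-fold higher, against 43 of all 715 remaining compounds. The 2 abundant entries with 34 carbons and 2 double bonds in total were both higher. PC(16:0/18:2) had 27.1 in castrated males, 29.6 in sham females and 10.5 in sham males (1.37), and PC(8:0/26:2) had 32, 38.3 and 12.9 in the same order (1.31). The second name gives chains that liver hardly makes, and both names have the same total carbons and double bonds. Whether the 2 entries are 1 lipid was not tested.

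PC(14:0/22:3), with 36 carbons and 3 double bonds in total, had 25.9 in castrated males, 57.9 in sham females and 6.64 in sham males (1.97). PC(18:1/18:2), with the same totals, went the other way, with 0.512 in castrated males, 0.901 in sham females and 0.946 in sham males (-0.88). The 2 entries past 2-fold lower were PC(6:0/26:2) at -1.25 and PC(22:5(4Z,7Z,10Z,13Z,16Z)/16:0) at -1.18. An ether lipid, PC(18:3(6Z,9Z,12Z)/P-18:1(11Z)), was at 1.5.

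Phosphatidylinositols, the source of signalling phosphoinositides, showed opposite ratios among arachidonoyl (20:4) species. PI(18:0/20:4), the typical mammalian species, had 1.51 in castrated males, 1.10 in sham females and 0.694 in sham males (1.12), and PI(16:1/20:4) was at 1.15. PI(16:0/20:4) had 1.99 in castrated males, 0.574 in sham females and 3.64 in sham males (-0.87). The remaining 20:4 entry, PI(18:1/20:4), was level, with 20.1, 25.2 and 20.9 in the same order of groups (-0.06). Over the 16 entries the median was -0.08, with 2 past 2-fold higher and 1 lower. Their lyso forms were lower in 9 of 13 entries, against 437 of 954 over all compounds, with LPI(20:0) at -3.31 and LPI(16:1) at -1.38. LPI(20:0) had 0.00800 in castrated males, 0.0139 in sham females and 0.0795 in sham males.

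The other lysophospholipids are single-chain products of phospholipases. The 11 lysophosphatidylserines had a median of 0.32, with 8 above 0, against 517 of 954 over all compounds. LPS(18:2), a lysophosphatidylserine, had the largest ratio of all 954 compounds, 24.2-fold. Its relative abundance was 0.0555 in castrated males, 0.102 in sham females and 0.00230 in sham males. The 10 other lysophosphatidylserines lay between -1.14 and 0.60, so no other member came near that ratio. LysoPC(20:3(5Z,8Z,11Z)) had 0.0477 in castrated males, 0.0800 in sham females and 0.127 in sham males (-1.42). The 32 lysophosphatidylcholines had a median of 0.10 and the 27 lysophosphatidylethanolamines one of 0.12. None of 20 listed genes of phospholipid synthesis and remodelling was called in the authors' deposited table.

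**Figure D4:**
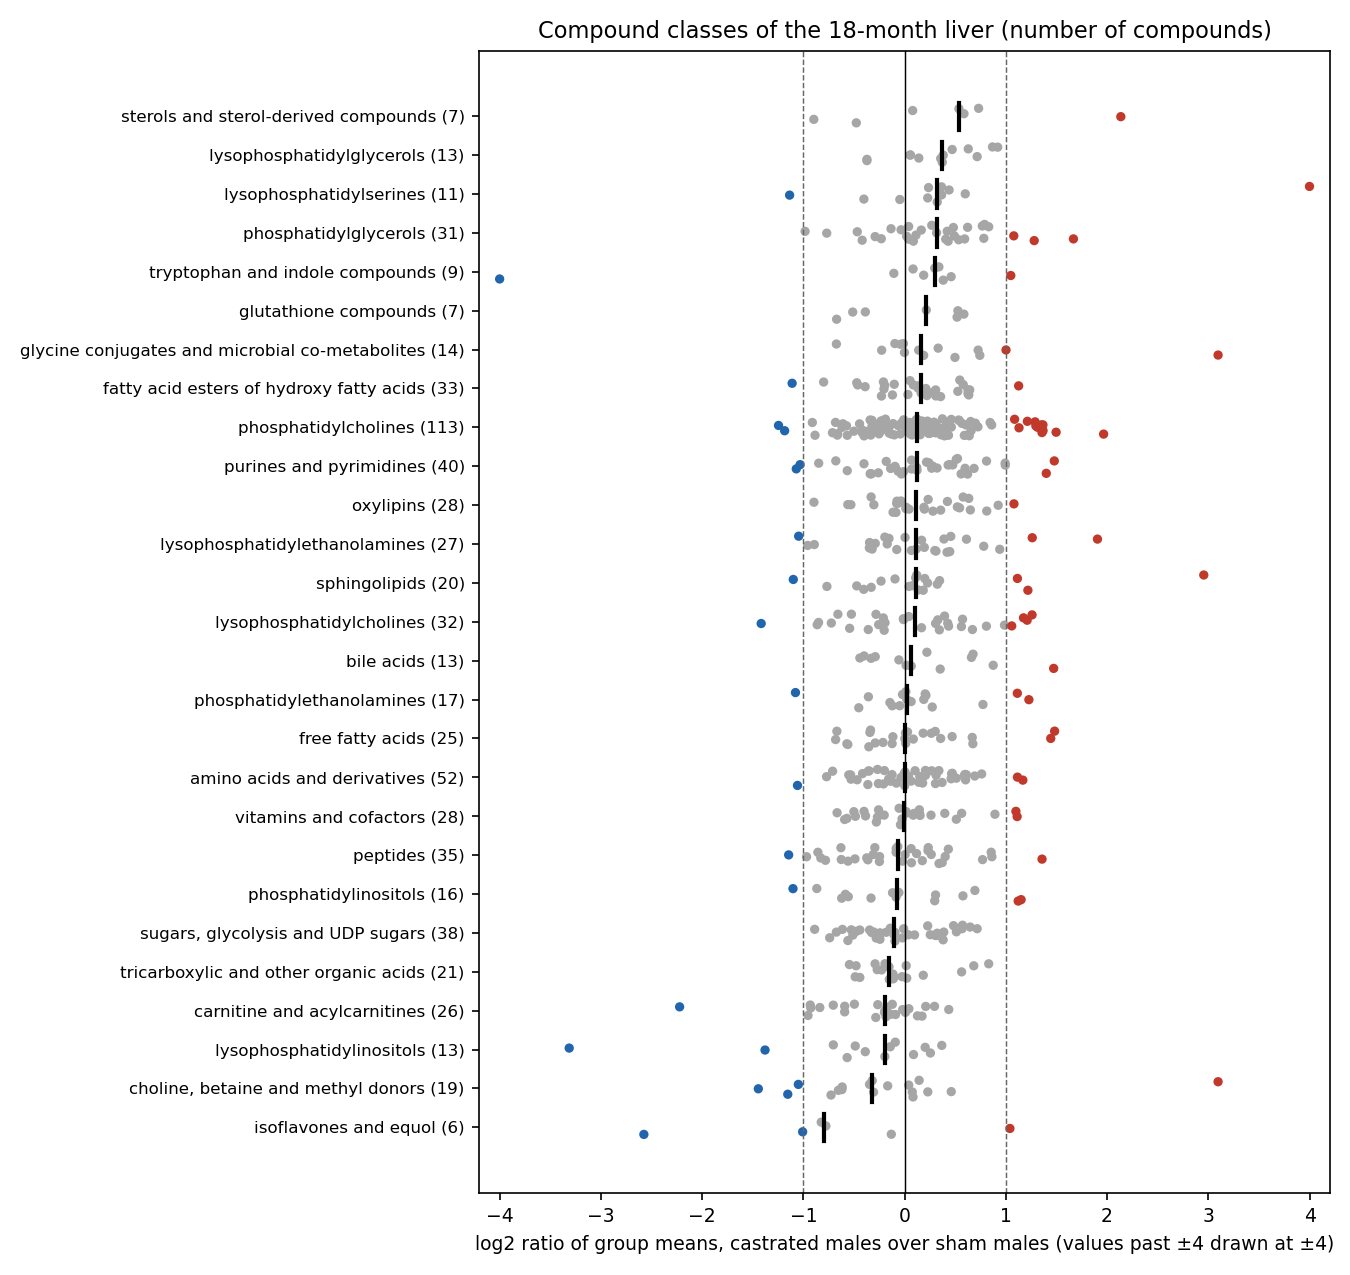
Each row is 1 of 27 compound classes, ordered by median, with 1 point per compound at its log2 ratio of castrated over sham males and a black bar at the class median. Dashed lines mark 2-fold, and values past 4 in either direction are drawn at the edge. Class medians run from -0.80 for isoflavones and equol to 0.54 for sterols and sterol-derived compounds. Without the 239 scarcest compounds the isoflavone median was 0.02, over 2 entries.

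Of 20 sphingolipids, membrane lipids built on a sphingoid base, 16 were within 2-fold, against 854 of 954 over all compounds. In this class 3 were past 2-fold higher and 1 lower, against 68 and 32 of 954, and the median was 0.11. Without the 239 scarcest compounds, 1 of the 15 remaining sphingolipids was past 2-fold higher and 1 lower. The sphingomyelin SM(d14:0/22:2) had 0.0102 in castrated males, 0.0151 in sham females and 0.00131 in sham males (2.96), and SM(d18:0/16:0) had 0.406, 0.222 and 0.175 in the same order (1.22). SM(d14:0/20:1) had 0.372 in castrated males, 0.991 in sham females and 0.797 in sham males (-1.10). The 7 ceramide entries lay between -0.77 and 0.32. None of 11 listed genes of sphingolipid and sterol conjugation was called in the authors' deposited table.

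Free cholesterol was lower and its sulfate higher in castrated males. Cholesterol had 0.164 in castrated males, 0.151 in sham females and 0.306 in sham males (-0.90), and cholesterol sulfate had 6.53, 10.4 and 3.93 in the same order (0.73). Calcitriol, the active form of vitamin D, had 0.00645 in castrated males, 0.00260 in sham females and 0.00147 in sham males (2.14), and 24,25-dihydroxyvitamin D was at 0.54. The calcitriol entry was among the 239 scarcest compounds. Corticosterone, the main glucocorticoid of mice, had 0.00647 in castrated males, 0.00538 in sham females and 0.00900 in sham males (-0.48).

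Among 25 free fatty acids 2 were past 2-fold higher, undecanoic acid at 1.48 and tetracosahexaenoic acid, an intermediate of docosahexaenoic acid synthesis, at 1.44. The class median was 0.01, and over all compounds 7.13% were past 2-fold higher. Arachidonic acid had 266 in castrated males, 220 in sham females and 208 in sham males (0.36), and eicosapentaenoic acid had 48.4, 19.7 and 61.1 in the same order (-0.34). Of 28 oxylipins, oxidised fatty acids with signalling roles, 1 was past 2-fold, alpha-dimorphecolic acid, a hydroxylated linoleic acid, at 1.08. Of 33 fatty acid esters of hydroxy fatty acids, 1 was past 2-fold higher and 1 lower.

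Among 12 listed genes of fatty acid elongation and desaturation, Elovl3 was called, and over all genes tested 1.01% fell. Elovl3 (chromosome 19, 46131897 to 46135694, mm10, plus strand), an elongase of very long chain fatty acids with a male bias in mouse liver, averaged 9.64 in castrated males, 2.68 in sham females and 197 in sham males. It fell by 4.48 on the log2 scale in the authors' deposited table (adjusted p = 0.000656, DESeq2). The desaturases Fads1, Fads2 and Scd1 and the elongases Elovl2 and Elovl5 were not called there.

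Amino acids were close to level, with a median of 0.01 over 52 entries and 2 past 2-fold higher and 1 lower. Asymmetric dimethylarginine, a breakdown product of methylated proteins that inhibits nitric oxide synthase, was higher under both of its names. One entry had 0.341 in castrated males, 0.288 in sham females and 0.157 in sham males (1.12), and the other had 0.286, 0.277 and 0.177 in the same order (0.69). None of 5 listed genes of dimethylarginine and creatine metabolism was called in the authors' deposited table.

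Glutathione, the main thiol of the liver, had 39.7 in castrated males, 25.6 in sham females and 27.6 in sham males (0.53). Its precursor gamma-glutamylcysteine was at -0.67. The 2 entries for its disulfide disagreed, at 0.21 and -0.51, so no direction can be read for the oxidised form. Of 35 peptides 1 was past 2-fold higher and 1 lower. Genes of glutathione, cysteine and taurine metabolism gave 0 calls among 11 in the authors' deposited table.

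Nicotinamide and hypoxanthine, breakdown and salvage forms of NAD and of purines, were about 2-fold higher in castrated males. Nicotinamide had 8.35 in castrated males, 7.74 in sham females and 3.90 in sham males (1.10). NADH had 0.0148, 0.0102 and 0.00684 in the same order (1.11), while NAD was level at 0.15. Hypoxanthine had 2.90 in castrated males, 2.80 in sham females and 1.46 in sham males (1.0), and adenosine had 4.18, 3.84 and 3.01 in the same order (0.48). For nicotinamide and hypoxanthine castrated males lay beside sham females and apart from sham males.

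Nucleotides and deoxynucleosides lay on both sides of 0. Uridine monophosphate had 6.86 in castrated males, 5.69 in sham females and 11 in sham males (-0.68), and the more abundant of 2 entries for AMP had 3.25, 3.64 and 5.84 in the same order (-0.85). The scarcer AMP entry was at 0.22. Guanosine monophosphate was at 1.40 and -0.06 under its 2 names, inosinic acid at 0.07 and 0.12, and ADP at -0.26 and -0.09. Thymidine and its base thymine, parts of DNA, were at -1.03 and -1.07, and both were among the 239 scarcest compounds. The oxidised nucleoside 8-hydroxy-2'-deoxyguanosine, a marker of oxidative damage to DNA, had 0.597 in castrated males, 0.511 in sham females and 0.214 in sham males (1.48). In all, 2 of 40 purines and pyrimidines were past 2-fold higher and 2 lower, with a median of 0.12.

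Of 21 listed genes of purine, pyrimidine and NAD metabolism 1 rose and 1 fell, against 1.08% and 1.01% of all genes tested. Nt5e (chromosome 9, 88327197 to 88372092, mm10, plus strand), the cell-surface enzyme that turns AMP into adenosine, averaged 19.2 in castrated males, 20.4 in sham females and 3.62 in sham males. It rose by 2.25 on the log2 scale in the authors' deposited table (adjusted p = 0.00203, DESeq2). Aox3 (chromosome 1, 58113130 to 58200698, mm10, plus strand), an aldehyde oxidase of mouse liver that also oxidises nitrogen heterocycles, averaged 62.0 in castrated males, 53.2 in sham females and 178 in sham males. It fell by 1.61 on that scale in the authors' deposited table (adjusted p = 0.000843, DESeq2).

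Sugars and organic acids of central metabolism showed no ratio past 2-fold, with 0 of 38 and 0 of 21. Over all 954 compounds 68 were higher and 32 lower. UDP-glucose, the donor for glycogen synthesis and glucuronidation, was lowest at -0.89, with 0.853 in castrated males, 0.603 in sham females and 1.58 in sham males. L-lactic acid had 64.5 in castrated males, 60.4 in sham females and 92.9 in sham males (-0.53). Glucose had 27.6, 24.5 and 29.5 in the same order (-0.09). L-malic acid, an intermediate of the tricarboxylic acid cycle, had 14.3 in castrated males, 6.76 in sham females and 8.06 in sham males (0.83), whereas the scarce entries named malic acid and D-malic acid were at -0.49 and -0.02. None of 16 listed genes of glucose, glycogen and UDP sugars was called in the authors' deposited table.

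The most negative ratio of all belonged to 2-aminobenzoic acid (anthranilic acid), a side product of tryptophan breakdown. It had 1.72e-05 in castrated males, 0.000166 in sham females and 0.00108 in sham males (-5.98), and it was the compound of lowest mean abundance of all 954. The other tryptophan compounds were within 2-fold except isatin (1H-indole-2,3-dione) at 1.05. Tryptophan was at 0.46, kynurenine at 0.30 and quinolinic acid at 0.08. Acmsd (chromosome 1, 127729413 to 127767978, mm10, plus strand), the decarboxylase that diverts kynurenine products away from quinolinic acid and NAD, averaged 2.33 in castrated males, 5.53 in sham females and 7.11 in sham males. It fell by 1.74 on the log2 scale in the authors' deposited table (adjusted p = 0.000785, DESeq2). Acmsd was the 1 call among 9 listed genes, and over all genes tested 1.01% fell.

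Most plant isoflavone entries and their microbial product had a lower mean in castrated males. Equol, which gut bacteria make from the soy isoflavone daidzein and which binds oestrogen receptors, had 0.00373 in castrated males, 0.00364 in sham females and 0.0222 in sham males (-2.58). Daidzein had 0.0626 in castrated males, 0.113 in sham females and 0.126 in sham males (-1.01), and the glucuronides of daidzein and genistein were at -0.82 and -0.78. Ononin, a glycoside of another isoflavone, was higher at 1.04. The class has 6 entries, 5 of them below 0, against 437 of 954 over all compounds. Without the 239 scarcest compounds 2 entries remained, daidzein and ononin, on opposite sides of 0, and the class median was 0.02. Equol was thus low in castrated males and sham females alike, and daidzein was low in castrated males alone.

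Several of the 15 largest and 15 smallest ratios carry the names of plant, drug or synthetic compounds. Of the 15 largest, 7 belonged to no class set out here, and of the 15 smallest 5 did. The 239 scarcest compounds held 5 of the 15 largest and 8 of the 15 smallest ratios. Calcitriol, equol, rhapontigenin and 3-methylglutarylcarnitine were among these. Alpha-terpinyl anthranilate had 0.0401 in castrated males, 0.0163 in sham females and 0.00978 in sham males (2.04). Kukoamine C, a polyamine conjugate known from plants, was at 2.89, N-nitrosothiazolidine-4-carboxylic acid at 3.19, 2-(3,4-dihydroxybenzoyloxy)-4,6-dihydroxybenzoate at 2.16 and isopimpinellin, a plant furocoumarin, at 1.66. MGDG(18:0/18:2), named as a plant galactolipid, was at 1.83 and N-acetylgalactosamine 6-sulfate, a unit of glycosaminoglycans, at 1.51.

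On the lower side rhapontigenin, a plant stilbene, had 0.00166 in castrated males, 0.00463 in sham females and 0.0156 in sham males (-3.23). Liquiritin, a licorice flavonoid glycoside, was at -1.84 and 2,8-dihydroxyquinoline-beta-D-glucuronide at -2.20. Pipericine and norecasantalic acid, both among the scarcest entries, were both at -1.67. These names were assigned by the authors from fragment spectra, and how certain each name is was not stated.

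Entries with the same or a closely related name differed in their ratios. There were 59 sets: 22 of 1 compound under several names, 9 of optical forms and 28 of lipids of 1 class with the same chains. The lipids were matched without chain order or double bond positions. The last 2 kinds can therefore hold distinct molecules, and their differences are not technical alone. Over all 59 sets, the log2 ratios within a set differed by a median of 0.42, by more than 1 in 8 sets and by up to 1.67. In 23 sets they had opposite signs. For the 22 sets of 1 compound the median was 0.45, and 8 had opposite signs. Of the 10 sets of any kind with an entry past 2-fold, 0 had every entry past it. Guanosine monophosphate is an example, at 1.40 under one name and -0.06 under the other. A single entry near 2-fold therefore carries little weight on its own.

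Other tables of the series hold some of the same compounds. Of the 954 names, 431 occurred in the 12-week liver, which comes from younger mice, 639 in the 18-month kidney and 480 in 18-month serum. The 12-week liver gave a Pearson correlation of 0.26 and a Spearman correlation of 0.17 with the 18-month liver across the 431 shared compounds, as a description, since compounds are not independent. Of the 26 shared compounds past 2-fold higher at 18 months 4 were so at 12 weeks, out of 11 there, and of the 14 past 2-fold lower 5 were so, out of 31 there. Whether liver, kidney and serum at 18 months came from the same mice is not stated, so those values are set side by side only.

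Trimethylamine N-oxide was higher in castrated than in sham male liver at both ages and level between them in 18-month kidney and serum. At 12 weeks the liver had 0.181 in castrated males, 0.473 in sham females and 0.0349 in sham males (2.37). The 18-month kidney had 0.294, 0.279 and 0.304 in the same order of groups (-0.05), and serum had 1.91, 3.73 and 1.89 (0.01). Equol was lower in castrated males in each table, at -1.46 in 12-week liver, -1.32 in kidney and -0.84 in serum. Rhapontigenin was at -1.84 in 12-week liver and -1.54 in kidney, and 3-methylglutarylcarnitine at -1.70 in 12-week liver and -0.32 in kidney. Alpha-terpinyl anthranilate was higher in all 3, at 1.58, 1.81 and 1.96.

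Taurodeoxycholic and taurocholic acid had other ratios in the 12-week liver. Taurodeoxycholic acid was at -0.26 in 12-week liver, 1.6 in 18-month kidney and 0.72 in serum, and taurocholic acid at -1.19, 1.68 and 0.51 in the same order of tables. At 12 weeks taurocholic acid had 0.0149 in castrated and 0.0339 in sham male liver. Ursodeoxycholic acid was at 0.07 in 18-month and 0.16 in 12-week liver, and chenodeoxycholic acid at -0.06 and -0.10. Nicotinamide was level in 12-week liver at -0.08 and in kidney at -0.10, and higher in serum at 0.89. Calcitriol and SM(d14:0/22:2) were matched in serum alone, at 3.05 and 3.01. PC(14:0/22:3) was level in 12-week liver at -0.09 and higher in serum at 3.87. Acetylcarnitine, lower in the 18-month liver, was at 0.15 in 12-week liver, 0.31 in kidney and 0.38 in serum. LPS(18:2), the largest ratio of the 18-month liver, was at -0.06 in 12-week liver and -0.70 in kidney.

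**Figure D5:**
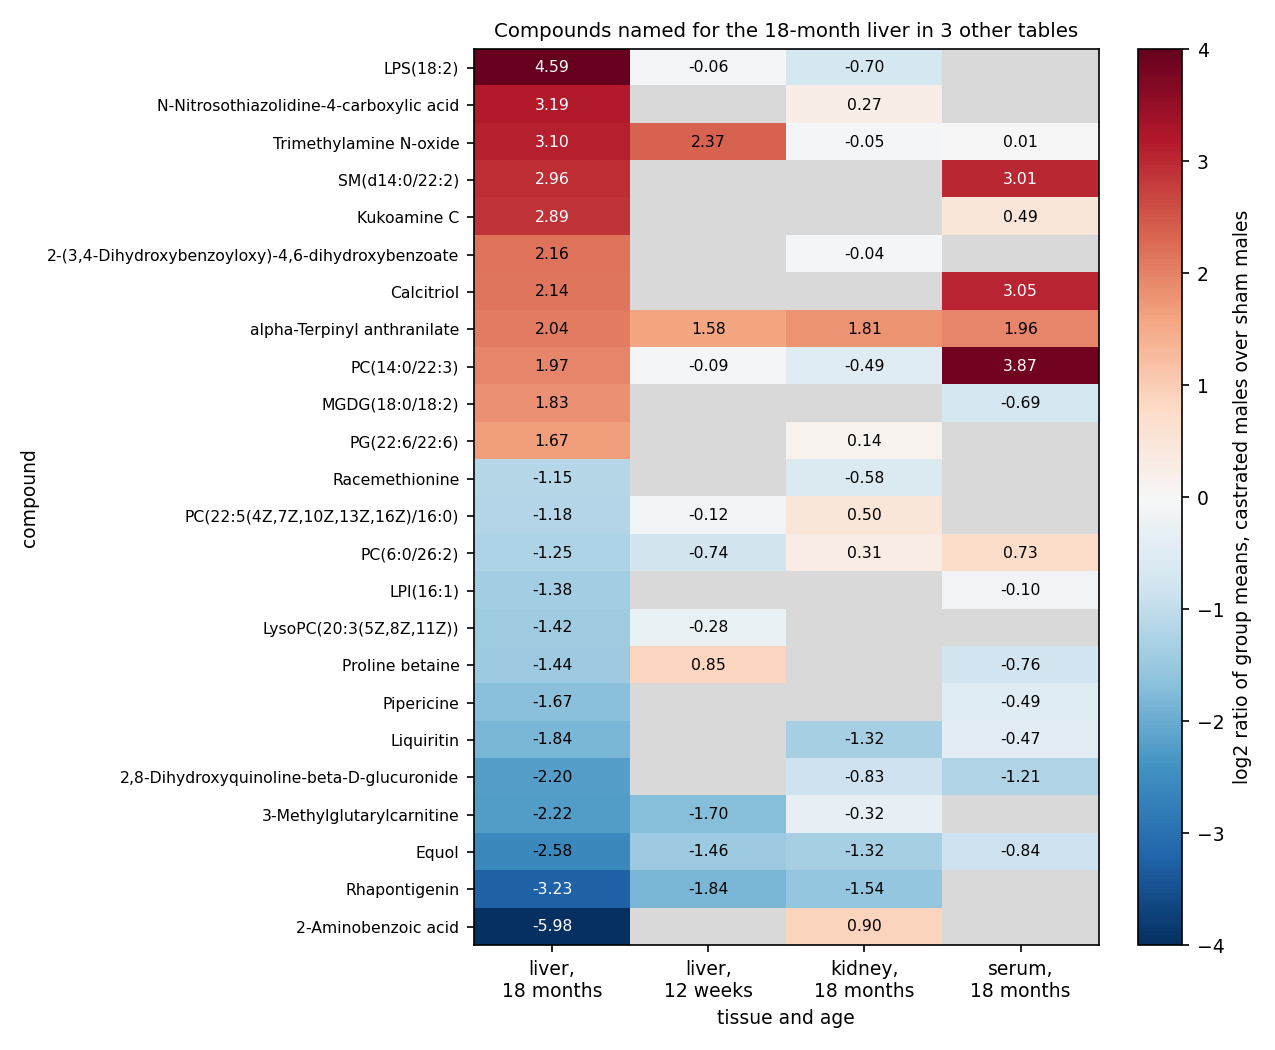
Rows are 24 of the 30 compounds with the largest or smallest 18-month liver ratios that occur in another table, and columns are tissue and age. Colour and number give the log2 ratio of castrated over sham males, colour ends at 4 in either direction, and grey marks a compound without a match. Equol and alpha-terpinyl anthranilate keep 1 sign across all 4 columns.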

How the data were processed

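The series' design text names untargeted metabolomics, and compounds carry names from MS2 spectra per the file headers. The authors deposited 1 mean relative abundance (signal) per compound and group; its normalization and scale and the number of mice were not stated. The serum abundances, another deposited table of group means by the authors, were read the same way, as ratios within the table. For RNA, the authors deposited group means of normalized expression (signal) in a unit that is not named. The authors' comparison gives each gene a log2 fold and a p-value, with its adjusted value, by DESeq2 per the file headers. The submitters' processing notes list HISAT2, SAMtools and Cufflinks and the build mm10, without versions. Depth is unknown.

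Ratios of group means were computed with Python 3.11.15, pandas 2.3.3 and NumPy 2.4.6 and checked on simulated data. A compound counted as higher or lower past 2-fold, a gene as called at an adjusted p under 0.05. No pseudocount was added. The text names the 15 largest and 15 smallest ratios, members of 27 compound classes and 156 pathway genes. These members and lists were chosen with earlier results of these data known. Some items are not reported here. Gene positions come from GENCODE vM21 (mm10). Alternatives were a 1.5-fold limit, median centring, total-signal scaling, leaving out the 239 scarcest compounds, merging repeated entries, and an adjusted p of 0.01.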

Additional observations from a re-analysis of the deposited data

How the results depend on the processing

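With a 1.5-fold limit, 152 compounds were higher and 109 lower in castrated than in sham males, 160 higher and 146 lower in sham females than in sham males, and 129 higher and 114 lower in castrated males than in sham females. Without the 239 compounds of lowest abundance, the counts were 43 higher and 17 lower in castrated than in sham males, 42 lower in sham females than in sham males, and 41 higher in castrated males than in sham females, among 715 compounds. Scaling to total signal gave 59 lower in castrated males than in sham females. Median centring and the merging of entries that share a name kept all 6 counts within 1.5 times. So did merging repeated entries, optical forms and lipids with the same chains included, an alternative chosen after the data were seen. Each of the 30 compounds with the largest or smallest ratios stayed past 2-fold in its direction under median centring and total-signal scaling. The class median changed sign under median centring for phosphatidylethanolamines (-0.02), free fatty acids (-0.03) and amino acids (-0.03). Without those 239 it did so for lysophosphatidylcholines (-0.10), vitamins and cofactors (0.02) and the 2 remaining isoflavones (0.02). All 12 called pathway genes had an adjusted p under 0.01 in the authors' deposited table. No paired analysis was possible because the tables hold group means, and for the same reason no replicate could be left out.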

Other observations

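Vitamins were mixed within narrow limits. Of 28 vitamins and cofactors 2 were past 2-fold higher, the NADH and nicotinamide entries given above, and 0 lower. Ascorbic acid, which mouse liver makes itself, had 16.3 in castrated males, 4.67 in sham females and 11 in sham males (log2 ratio 0.56). Thiamine had 0.343 in castrated males, 0.546 in sham females and 0.545 in sham males (-0.67), and its monophosphate was at -0.49. Vitamin A had 0.106, 0.121 and 0.160 in the same order of groups (-0.59). Ergothioneine, an antioxidant taken up from food, had 1.82 in castrated males, 2.10 in sham females and 3.01 in sham males (-0.73), and was at -0.49 in the 12-week liver and 0.40 in the 18-month kidney.

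Of the 14 glycine conjugates and microbial co-metabolites, 2 were past 2-fold higher and 0 lower, against 7.13% and 3.35% over all compounds. The 2 were trimethylamine N-oxide, given above, and oleoyl glycine at 1.0, with 0.0798 in castrated males, 0.0730 in sham females and 0.0399 in sham males. p-Cresol sulfate, a bacterial tyrosine product sulfated in the host, had 0.0536 in castrated males, 0.113 in sham females and 0.0324 in sham males (0.73). Indoxyl sulfate was at 0.19 and hippuric acid at -0.01.

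Markers of other cell types in the liver RNA were not even across groups. The Kupffer cell markers Clec4f, Vsig4 and Cd5l averaged 25.9, 10.2 and 22.4 in castrated males, 49.3, 27.7 and 61.2 in sham females and 15.4, 7.70 and 15.4 in sham males. The erythroid marker Alas2 averaged 20.8 in castrated males, 7.78 in sham females and 70.1 in sham males, and Hbb-bs averaged 504, 322 and 326 in the same order. Their part in the gene results was not tested.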
